A study of Mus musculus with 6 samples.

Results

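The smooth muscle contractile genes are 10 genes named by symbol, Acta2, Tagln, Myl9, Myh11, Mylk, Actg2, Cnn1, Smtn, Lmod1 and Des, out of 26214 features counted. All 10 passed the filter on low counts that left 16281 tested genes. RNA sequencing of ribosome-depleted total RNA was made on colon tumours of mice given azoxymethane, a carcinogen, and dextran sulfate sodium, which injures the colon lining. Tumours of 3 Trim21 -/- samples (knockout) were compared with tumours of 3 Trim21 +/+ samples (wild type), and both groups had received the same 2 agents. The sources used here do not give the strain, the age, the Trim21 allele or the way tumours were separated from the bowel wall. The sample titles number the samples of each group as biological replicates. A separate mouse for every sample is not stated, so the p-values speak only to the spread among these samples.

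Smooth muscle shortens when myosin slides along actin. Calcium with calmodulin activates the kinase encoded by Mylk, which phosphorylates the regulatory light chain encoded by Myl9, and the heavy chain encoded by Myh11 then pulls on the actins encoded by Acta2 and Actg2. In the colon these genes are at work in the muscle layers of the wall and in vessel walls. Myofibroblasts, the activated fibroblasts of wounds and tumours, also switch on Acta2, Tagln and Myl9, whereas Myh11, Cnn1, Actg2, Des and Lmod1 mark mature muscle more closely. Many of these promoters carry the CArG box, the site bound by serum response factor together with myocardin.

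Knockout libraries held 17937821 to 19987295 counts and wild-type libraries 27085599 to 29742757. Levels are in CPM, the reads of a gene scaled to a common library size. Trim21 itself had 12.1, 18.9 and 12.8 CPM in knockout replicates 1 to 3, against 29.8, 20.3 and 19.5 CPM in wild-type replicates 1 to 3. The groups did not overlap, with a log2 fold change of −0.67 (standard error 0.24, edgeR adjusted p = 0.418), and transcripts of the gene remained in all knockout libraries. Which part of the gene was removed is not stated, so these reads check the labels only in part. Markers of epithelium, among them Epcam and Cdh1, summed to 7271 to 7904 CPM in every library. A pair of wild-type libraries stood apart. Wild-type replicate 1 had the lowest value of 9 of the 10 muscle genes, and wild-type replicate 3 carried skeletal muscle transcripts. The list of 15 skeletal muscle markers summed to 4480 CPM there, against 13.2 to 40.9 CPM in the other 5 libraries. The log2 fold changes of the 10 genes are therefore also given without each of these libraries. Knockout replicate 1 had the highest value of each of the 10 genes. Without it their median log2 fold change was 0.79, against 1.01 with all libraries.

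All 10 genes had a higher fitted level in knockout tumours, with a median log2 fold change of 1.01, a 2.01-fold difference, against −0.01 over all tested genes. Positive values were found for 47.9% of all tested genes. In the quasi-likelihood test of edgeR with Benjamini-Hochberg adjustment over all tested genes, 0 of the 10 passed an adjusted p of 0.05, as did 0% of all genes in either direction. At an unadjusted p under 0.05, 7 of the 10 were higher, where the share over all genes was 6.63%. Every knockout value lay above every wild-type value for 6 of the 10 genes, against 9.43% of all genes, and 0 of the 10 lay apart in the other direction, against 8.47%. By edgeR, the number with an unadjusted p under 0.05 was 5 without wild-type replicate 1 (5.18% of all genes), 5 without wild-type replicate 3 (6.22%), 3 when knockout replicate 1 was left out (6.97%) and 4 when knockout replicate 3 was left out (3.79%). With fewer libraries more genes lie apart, and 6 of the 10 did so without wild-type replicate 1, against 13.2% of all genes, and 6 without wild-type replicate 3, against 14.9%. DESeq2 called 3 of the 10 at an adjusted p under 0.05, namely Acta2 (0.00917), Myl9 (0.00575) and Mylk (0.0233), where 1.41% of the genes it tested were called higher. It called 0 of the 10 lower, against 0.543% of all genes. In bulk tissue, a change in the number of muscle cells and a change in RNA per cell cannot be told apart.

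**Figure D1:**
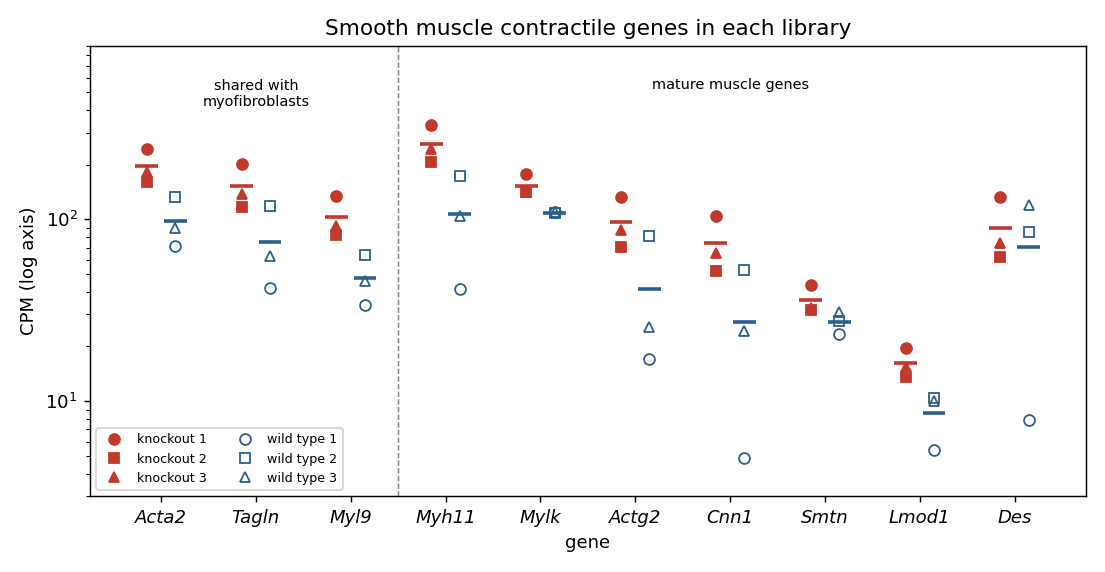
CPM of the 10 genes (log axis) in each library, with filled red symbols for knockout, open blue symbols for wild type, bars for group means and the symbol shape for the replicate number. Knockout replicate 1 is highest for every gene, and wild-type replicate 1 falls to 4.90 CPM for Cnn1 and 7.88 CPM for Des.

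Of the 3 genes shared with myofibroblasts, Acta2, alpha smooth muscle actin, measured 244, 161 and 182 CPM in knockout replicates 1 to 3 and 71.5, 133 and 89.3 CPM in wild-type replicates 1 to 3. The groups did not overlap, and the lowest knockout value was 1.21 times the highest wild-type value. Acta2 had a fitted log2 fold change of 1.00 (standard error 0.25, edgeR adjusted p = 0.335), which was 0.82 with wild-type replicate 1 left out and 0.93 with wild-type replicate 3 left out. Acta2 lies on chromosome 19 from 34241090 to 34255590 of mm10, minus strand. Myl9, the regulatory light chain, measured 135, 82.3 and 92.1 CPM in knockout and 34.0, 63.8 and 45.8 CPM in wild-type libraries, again without overlap. Its log2 fold change was 1.11 (standard error 0.27, edgeR adjusted p = 0.334), with 0.91 and 1.07 in the same pair of leave-outs. It lies on chromosome 2 from 156775420 to 156781658, plus strand. Tagln, which encodes the actin-binding protein SM22, measured 201, 117 and 137 CPM in knockout and 42.1, 119 and 63.0 CPM in wild-type libraries. Wild-type replicate 2 slightly exceeded knockout replicate 2, so the groups overlapped. The log2 fold change of Tagln was 1.02 (standard error 0.38, edgeR adjusted p = 0.426). It was 0.74 with wild-type replicate 1 left out and 0.91 with wild-type replicate 3 left out, and its unadjusted edgeR p went from 0.0311 to 0.0610 and 0.0870. Tagln is on chromosome 9 from 45929619 to 45936058, minus strand, where Pcsk7 overlaps it on the other strand, and the sources used here do not say whether strand was used in counting.

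Acta2 and Myl9 followed each other more closely over the 6 libraries than any other pair of the 10 genes. After centring each gene's log2 CPM on its mean, they differed by a root mean square of 0.07, and the Myl9 to Acta2 ratio of CPM ranged only from 0.475 to 0.553. Lmod1, described below, lay 0.18 from Myl9 and 0.19 from Acta2. Mylk and Smtn were the next closest pair, at 0.13. RefSeq windows of 300 bases on GRCm38.p6, from 250 before the annotated start to 50 after it, were found for 7 of the 10 genes (not for Tagln, Myh11 or Actg2). Acta2, Myl9 and Lmod1 are shown because theirs were the 3 windows of these 7 that held a stretch like the CArG box, so what they hold was the ground for showing them. Capitals mark stretches of 10 bases that match the CArG box or depart from it by 1 letter, and because the box reads the same on both strands, each match holds for both. The windows are chr19:34255324-34255623, minus strand, for Acta2, chr2:156775214-156775513, plus strand, for Myl9 and chr1:135324563-135324862, plus strand, for Lmod1.
Acta2: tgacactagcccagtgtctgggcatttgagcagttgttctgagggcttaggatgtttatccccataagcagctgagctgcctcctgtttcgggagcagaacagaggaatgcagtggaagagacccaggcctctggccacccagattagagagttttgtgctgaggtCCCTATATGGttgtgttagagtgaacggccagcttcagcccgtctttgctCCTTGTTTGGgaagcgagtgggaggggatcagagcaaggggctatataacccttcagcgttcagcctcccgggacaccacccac
Myl9: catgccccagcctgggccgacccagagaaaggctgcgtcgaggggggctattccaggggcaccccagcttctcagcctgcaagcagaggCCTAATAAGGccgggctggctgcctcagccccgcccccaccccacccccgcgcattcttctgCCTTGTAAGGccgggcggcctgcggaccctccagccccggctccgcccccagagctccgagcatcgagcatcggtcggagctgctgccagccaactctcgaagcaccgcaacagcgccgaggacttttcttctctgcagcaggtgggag
Lmod1: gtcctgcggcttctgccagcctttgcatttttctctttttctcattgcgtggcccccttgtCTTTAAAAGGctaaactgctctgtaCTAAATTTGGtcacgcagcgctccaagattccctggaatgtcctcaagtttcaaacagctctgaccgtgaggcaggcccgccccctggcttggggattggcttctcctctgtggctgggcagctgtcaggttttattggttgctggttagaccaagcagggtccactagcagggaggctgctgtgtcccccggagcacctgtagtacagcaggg
Myl9 was the only one of the 7 genes with an exact match, CCTAATAAGG at positions −161 to −152 from the annotated start, and 1.63% of all 32851 promoter windows held an exact match. The Acta2 window held CCCTATATGG at −84 to −75 and CCTTGTTTGG at −34 to −25, each 1 letter off. In Lmod1, 2 such stretches lay at −189 to −180 and −164 to −155, and in Myl9 a further one at −99 to −90. A stretch with at most 1 letter off was present in 21.1% of all windows, so this weaker match is common. The windows of Des, Cnn1, Smtn and Mylk held neither kind. Those of Smtn and Mylk lie within the gene spans given below, so starts farther upstream in these genes were not scanned.

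Among the myosin genes of mature muscle, Myh11, the smooth muscle myosin heavy chain, had 329, 208 and 245 CPM in knockout and 41.6, 173 and 105 CPM in wild-type libraries. The groups did not overlap, and wild-type values spanned a 4.16-fold range against 1.58-fold in the knockout. Myh11 had a fitted log2 fold change of 1.29 (standard error 0.46, edgeR adjusted p = 0.413), with 0.91 when wild-type replicate 1 was left out and 1.28 when wild-type replicate 3 was left out. Its unadjusted edgeR p was 0.0257 with all libraries, 0.0127 in the first of these fits and 0.0607 in the other. Myh11 lies on chromosome 16 from 14194535 to 14291372, minus strand. Mylk, the light-chain kinase, had 178, 141 and 141 CPM in knockout and 109, 108 and 109 CPM in wild-type libraries. The wild-type values differed by a factor of only 1.01, the smallest spread of the 10 genes. Mylk had a fitted log2 fold change of 0.50 (standard error 0.11, edgeR adjusted p = 0.333), and 0.50 without wild-type replicate 1 or without wild-type replicate 3. Mylk also encodes a long kinase of epithelium and endothelium and a short protein without kinase activity, which counts per gene do not separate. It lies on chromosome 16 from 34745210 to 35002420, plus strand, and 2 counted antisense genes overlap it.

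Actg2, the gamma actin of visceral muscle, had 133, 70.8 and 87.9 CPM in knockout and 17.1, 81.0 and 25.5 CPM in wild-type libraries. Wild-type replicate 2 lay above knockout replicate 2, while the other wild-type libraries were far below every knockout library. For Actg2 the fitted difference was, on the log2 scale, 1.24 (standard error 0.56) and had an interval (95%, unadjusted) from −0.09 to 2.56 (edgeR adjusted p = 0.485). It was 0.87, 2.19 and 0.98 when wild-type replicate 1, 2 or 3 was left out. The coding sequences of the actin genes are closely similar, and the sources used here do not say how reads that fit several of them were counted. Wild-type replicate 3 had 349 CPM of the skeletal actin gene Acta1, against 2.07 to 4.50 CPM elsewhere. Acta2 and Actg2 were both below their values in wild-type replicate 2 there, and above those in wild-type replicate 1. Whether reads of Acta1 were counted for either gene was not tested. Actg2 lies on chromosome 6 from 83512905 to 83536265, minus strand.

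Of the thin filament regulators, Cnn1, or calponin, which restrains the myosin motor, had 104, 51.8 and 65.5 CPM in knockout and 4.90, 52.7 and 24.4 CPM in wild-type libraries. Its values spanned 21.2-fold over the 6 libraries, the widest range of the 10 genes, and the groups overlapped at wild-type replicate 2. The log2 fold change, the largest of the 10, was 1.43 (standard error 0.72) and had an interval from −0.26 to 3.12 (edgeR adjusted p = 0.513). It was 0.93, 2.33 and 1.35 when wild-type replicate 1, 2 or 3 was left out. Lmod1, a leiomodin that starts actin filaments, had 19.5, 13.6 and 15.5 CPM against 5.37, 10.5 and 10.05 CPM, with no overlap. Its log2 fold change was 0.91 (standard error 0.28, edgeR adjusted p = 0.377), with 0.66 when wild-type replicate 1 was left out and 1.03 when wild-type replicate 3 was left out. Smtn, a cytoskeletal protein of contractile muscle, had 43.4, 31.8 and 32.6 CPM against 23.4, 27.5 and 31.0 CPM. Its groups were apart by a factor of 1.03 only, and the log2 fold change was 0.40 (standard error 0.17, edgeR adjusted p = 0.463), with 0.30 and 0.50 in those fits and 0.25 when knockout replicate 1 was left out. Cnn1 lies on chromosome 9 from 22099216 to 22109630, Lmod1 on chromosome 1 from 135324807 to 135368065, both on the plus strand, and Smtn on chromosome 11 from 3517523 to 3540612 on the minus strand.

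Des, desmin, the intermediate filament of all muscle types, departed from the other genes. It had 132, 62.2 and 73.9 CPM in knockout and 7.88, 85.4 and 119 CPM in wild-type libraries. Wild-type replicates 2 and 3 were both above knockout replicates 2 and 3, and wild-type replicate 1 was far below all others. The log2 fold change was 0.34 (standard error 0.80) and had an interval from −1.53 to 2.21 (edgeR adjusted p = 0.894). It was −0.19 without wild-type replicate 1, −0.06 when knockout replicate 1 was left out and 0.93 when wild-type replicate 3 was left out. In wild-type replicate 3 the Des to Myh11 ratio of CPM was 1.14, and in the other 5 libraries it was 0.19 to 0.494. The same library held 1418 CPM of Myh4, 528 CPM of Ttn and 433 CPM of Tnnt3, the fast myosin, titin and fast troponin T of skeletal muscle, which were between 0.0517 and 4.81 CPM elsewhere. Desmin is also a skeletal muscle protein, and the share of Des reads that came with these transcripts was not tested. Des lies on chromosome 1 from 75360329 to 75368579, plus strand.

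**Figure D2:**
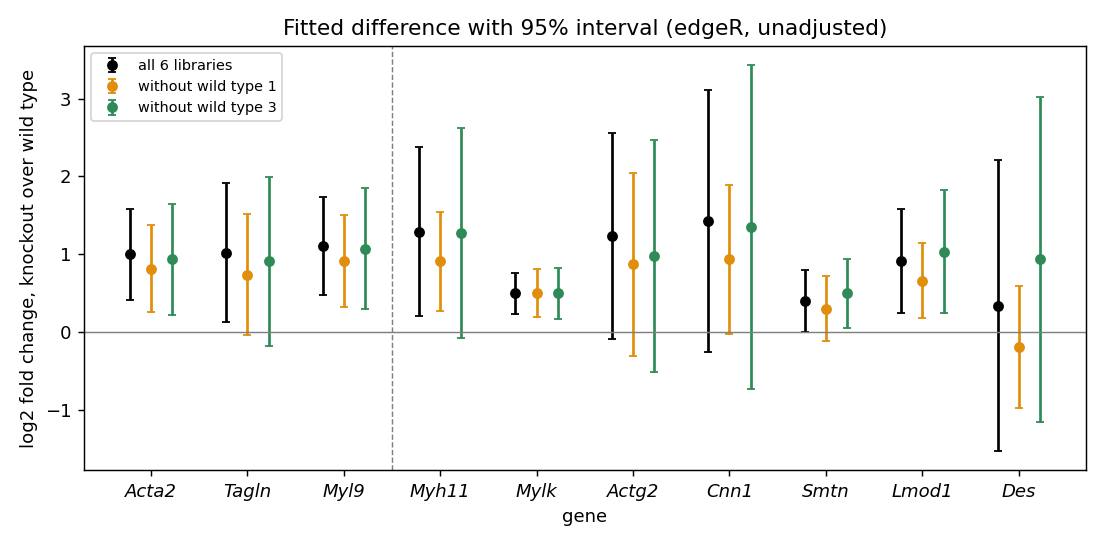
Log2 fold change of each gene, knockout over wild type, with unadjusted 95% intervals from edgeR, for all 6 libraries (black), without wild-type replicate 1 (orange) and without wild-type replicate 3 (green). The intervals of Acta2, Myl9, Mylk and Lmod1 lie above 0 in all 3 fits, while Des moves from 0.34 to −0.19 and 0.93.

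Exact two-sided permutation tests on log2 CPM, which with 3 against 3 cannot go below 0.1, gave 0.1 for the 6 genes whose groups did not overlap, 0.2 for Actg2, Tagln and Cnn1, and 0.8 for Des. To compare levels between genes, CPM was divided by the summed exon length of each gene in kilobases (RPKM). Acta2 (89.1 ± 19.6 RPKM), Myl9 (88.7 ± 24.0 RPKM) and Tagln (76.3 ± 22.3 RPKM) had the highest levels in the knockout, with overlap within their SD (n = 3). Actg2 followed at 62.5 ± 20.6 RPKM, then Myh11 at 34.3 ± 8.15, Cnn1 at 27.0 ± 9.86, Des at 23.8 ± 10.03 and Mylk at 13.6 ± 1.92 RPKM, and each of these overlapped the gene before it within their SD. Smtn (8.21 ± 1.48 RPKM) and Lmod1 (4.11 ± 0.759 RPKM) came last, each apart from the gene before it by more than both SD. These SD include differences in level between libraries that the genes share. Within each knockout library the order from Tagln to Lmod1 was the same, and only Acta2 and Myl9 changed places. In the wild type the order of the means was that of the knockout means, except that Des, at 18.9 ± 15.2 RPKM, stood above Myh11 and Cnn1. The exon length of Mylk includes its long form, which lowers the RPKM of its short forms.

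The contrast between the genes shared with myofibroblasts and the mature muscle genes gave a higher median in knockout tumours for both sets. The median log2 fold change was 1.02 for Acta2, Tagln and Myl9, with single values from 1.00 to 1.11. It was 0.91 for the 7 mature genes, with single values from 0.34 to 1.43. Of these, Cnn1 (1.43), Myh11 (1.29) and Actg2 (1.24) lay above every shared gene. Lmod1 (0.91), Mylk (0.50), Smtn (0.40) and Des (0.34) lay below every shared gene. The medians thus differed by 0.11, and by −0.05 without wild-type replicate 3 and 0.16 without wild-type replicate 1. With the mean log2 CPM of each set in place of medians, shared minus mature was −0.02, knockout minus wild type. This value was 0.24 without wild-type replicate 1 and −0.21 without wild-type replicate 3, so its sign depended on single wild-type libraries. The 7 mature genes include Mylk and Smtn, which were not named above as closer marks of mature muscle. Against Myh11, Actg2 and Cnn1 alone, the difference in means was −0.56. It was −0.15 without wild-type replicate 1 and −0.64 without wild-type replicate 3. These are the mature genes with the largest log2 fold changes, so a negative value partly follows from the choice. No test was made of any of these differences, since the members were chosen with earlier results known. At an unadjusted p under 0.05, 3 of 3 shared genes and 4 of 7 mature genes were higher, where the share over all genes was 6.63%. With wild-type replicate 1 left out these counts were 2 and 3 (5.18% of all genes), and with wild-type replicate 3 left out they were also 2 and 3 (6.22%).

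The balance of both sets was nearly the same in all knockout libraries and varied among wild-type libraries. The mean log2 CPM of the shared genes exceeded that of the mature genes by 0.93, 0.94 and 0.94 in knockout replicates 1 to 3. In wild-type replicates 1 to 3 this excess was 1.48, 0.82 and 0.57, so the wild type lay on both sides of the knockout. Leaving Des out, a choice made after its values were seen, narrowed the wild-type values to 1.30, 0.91 and 0.82, with 1.00, 0.95 and 0.95 in the knockout. Knockout libraries differed in level but hardly in the Acta2 to Myh11 ratio of CPM, which was 0.742, 0.776 and 0.742. In the wild type this ratio was 1.72, 0.769 and 0.850, with wild-type replicate 1 alone above 1.

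**Figure D3:**
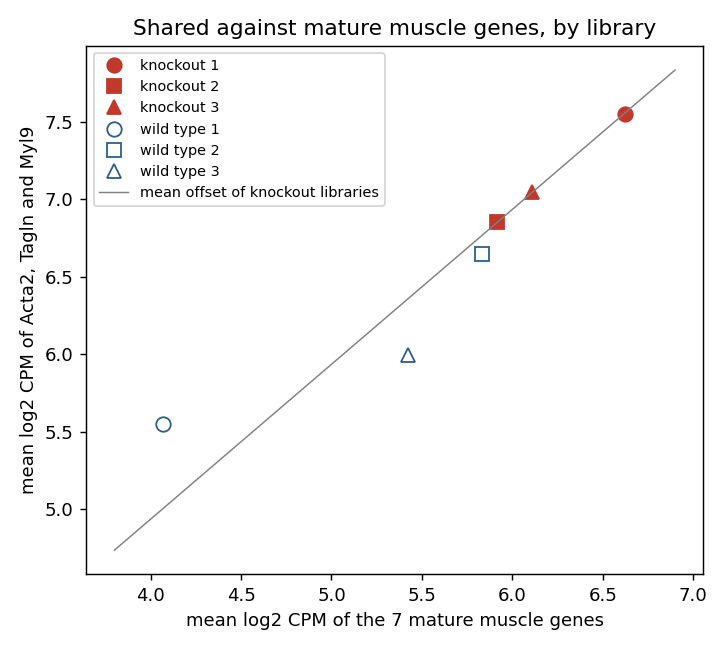
Mean log2 CPM of Acta2, Tagln and Myl9 against the mean log2 CPM of the 7 mature muscle genes, 1 point per library. The grey line marks the mean excess of the knockout libraries, 0.93. Wild-type replicate 1 lies above the line and wild-type replicate 3 below it.

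In wild-type replicate 1 the lowest values relative to the knockout were those of mature muscle genes. Relative to the knockout mean on a log2 scale, Cnn1 stood at −3.91, Des at −3.51, Myh11 at −2.65 and Actg2 at −2.51. The shared genes stood at −1.45 for Acta2, −1.60 for Myl9 and −1.85 for Tagln, and Lmod1 was at −1.60. Mylk at −0.49 and Smtn at −0.62 were nearest to 0. Wild-type replicate 2 stayed within −0.69 to −0.07 of the knockout mean for all 10 genes, a profile close to that of knockout replicate 2, which lay between −0.53 and −0.12. Wild-type replicate 3 had Actg2 at −1.93, Cnn1 at −1.60 and Myh11 at −1.31 but Des at 0.42. Thus the lower wild-type mean of Cnn1, Actg2 and Myh11 came from replicates 1 and 3 more than from replicate 2.

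**Figure D4:**
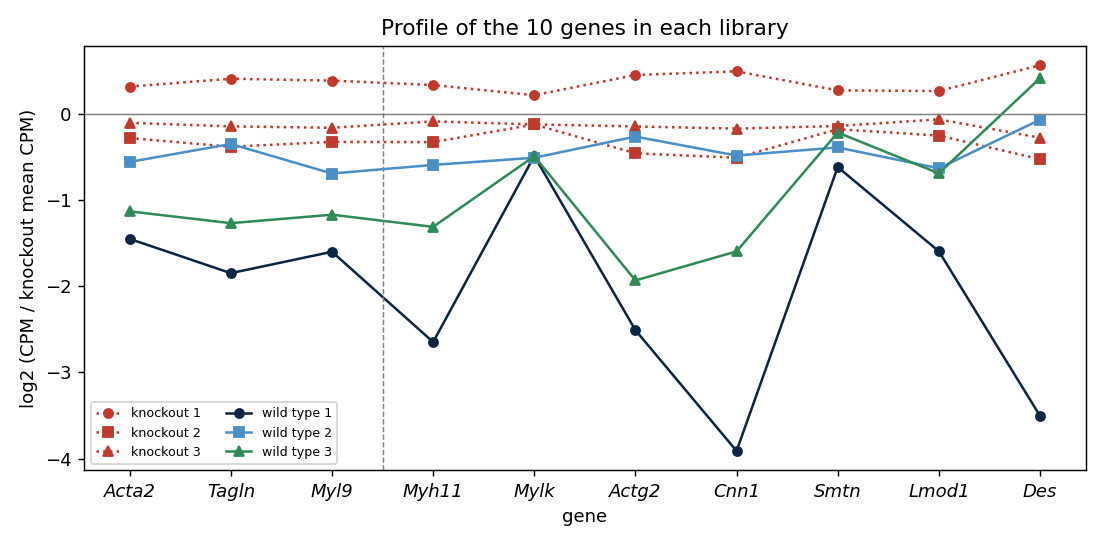
Log2 ratio of the CPM of each gene in each library to the mean CPM of the knockout libraries. The knockout libraries lie between −0.53 and 0.57, wild-type replicate 1 dips to −3.91 at Cnn1, and wild-type replicate 3 rises to 0.42 at Des.

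Lists of other genes of the contractile system had smaller medians than the 10 genes. None of their genes passed the adjusted test of edgeR, as was the case for all genes, and background shares at an unadjusted p under 0.05 were 6.63% higher and 4.12% lower. Of 16 genes for other parts of the contractile apparatus and its anchors, 10 had positive values, 4 were higher at an unadjusted p under 0.05, among them Flna, Csrp1 and Synpo2, and 1, Pdlim7, was lower. The median was 0.23, and 0.06 without wild-type replicate 1. The filamin gene Flna, a linker of actin to the membrane, measured 519.6 ± 42.8 CPM in knockout and 408 ± 33.5 CPM in wild-type libraries (log2 fold change 0.35). Tpm1, a tropomyosin, had 563 ± 25.1 and 512 ± 48.3 CPM, and Cald1, caldesmon, 343 ± 68.1 and 249.8 ± 80.6 CPM (SD, n = 3), and both overlapped between the groups. Tpm2, a tropomyosin of smooth and skeletal muscle named here after its values were seen, had 193 CPM in wild-type replicate 3, its highest value, and 18.6 CPM in wild-type replicate 1, its lowest.

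Of 16 genes that signal contraction or relaxation, 13 had positive values, 6 were higher and 1 lower at an unadjusted p under 0.05, and the median was 0.50. Pde5a, the cyclic GMP phosphodiesterase gene and among the most abundant of the list, had a log2 fold change of 0.03. The lower gene was Chrm3, a muscarinic acetylcholine receptor, with 0.931 to 1.19 CPM in knockout and 1.56 to 3.08 CPM in wild-type libraries. Chrm2, another muscarinic receptor gene, had 1.65 to 3.05 CPM in knockout libraries and 0.134 to 1.22 CPM in the others, at unadjusted p = 0.0314 by edgeR. Both were named after their values were seen. Among 9 genes of calcium handling and potassium channels the median was 0.36, and 0.53 without wild-type replicate 3. Kcnmb1, Ryr2 and Pln, which encode a potassium channel subunit, a calcium release channel and a brake on the calcium pump, were the 3 higher at an unadjusted p under 0.05. Ryr2 and Pln were scarce. Ryr2 had 1.76 to 2.58 CPM in knockout and 0.371 to 1.15 CPM in wild-type libraries. Pln had 1.29 to 2.78 CPM and 0.201 to 0.853 CPM. The most abundant member, the pump gene Atp2a2, measured 508 ± 33.9 CPM in knockout and 527 ± 30.6 CPM in wild-type libraries (SD, n = 3).

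The main transcription factors of the programme overlapped between the groups. Srf, serum response factor, measured 33.2, 29.2 and 28.5 CPM in knockout and 27.8, 26.8 and 30.03 CPM in wild-type libraries, and the groups overlapped. Myocd, its muscle-specific partner myocardin, had 1.74, 3.51 and 2.33 CPM against 0.939, 2.17 and 1.74 CPM, also with overlap. Both are named as the regulators of the CArG box. Of the 11 regulators, 7 had positive values, the median was 0.10 (0.28 without wild-type replicate 3), and Nkx2-3, Foxf1 and Klf4 were the 3 higher at an unadjusted p under 0.05. Klf4, known as a repressor of the smooth muscle programme and also a factor of differentiated gut epithelium, measured 274 ± 45.4 CPM in knockout and 122 ± 42.0 CPM in wild-type libraries (log2 fold change 1.17, edgeR adjusted p = 0.334). The source of its reads, epithelium or muscle, cannot be told apart in these samples. Of 6 tested genes of the dystrophin complex, integrins and caveolae, the integrin genes Itga7 and Itga8 were the 2 higher at an unadjusted p under 0.05. The median was 0.34, and it was 0.17 without wild-type replicate 1 and 0.77 without wild-type replicate 3.

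Marker lists of other cells that carry some of these genes had smaller medians than the 10 genes. The skeletal list had a strongly negative one, at −6.50, given below. Fibroblast and myofibroblast markers had 11 of 14 positive values and a median of 0.32 (0.18 without wild-type replicate 3). They summed to 2713, 3771 and 4168 CPM in knockout replicates 1 to 3 and 3233, 3058 and 2012 CPM in wild-type replicates 1 to 3, and the ranges overlapped. Col3a1, Col1a2 and Postn were the 3 higher at an unadjusted p under 0.05. In the knockout, Acta2, Tagln and Myl9 were highest in replicate 1, which had the lowest fibroblast sum. Single genes of that list differed in this. Over knockout replicates 1 to 3, Fn1 (516, 824 and 1150 CPM) and Col3a1 (671, 907 and 859 CPM) were lowest in replicate 1. Vim (335, 314 and 242 CPM) was highest there. Pericyte and vascular mural markers had 9 of 9 positive values with a median of 0.44. They summed to 494 to 652 CPM in knockout and 376 to 447 CPM in wild-type libraries, led by Rgs5 (326 ± 43.7 and 227 ± 35.8 CPM, SD, n = 3). Endothelial markers had a median of 0.38, with 9 of 10 positive values. The part of these cells in the difference of Acta2, Tagln and Myl9 was not tested.

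Among cells of the muscle layers, the markers Kit and Ano1 of the interstitial cells of Cajal, the pacemakers of the gut wall, were higher at an unadjusted p under 0.05, with log2 fold changes of 0.71 and 0.34. Kit also marks mast cells and some epithelial cells, and Ano1 also marks epithelium. The other marker of the list, Etv1, had −0.12 and was highest in wild-type replicate 3, at 22.1 CPM. Enteric neuron and glia markers had a median of 0.70 over 14 tested genes, 12 of them positive, and 0.37 without wild-type replicate 1. They were scarce, with sums of 29.6 to 46.4 CPM in knockout and 13.0 to 55.7 CPM in wild-type libraries, and Nos1, which skeletal muscle also expresses, gave 29.1 CPM of the sum in wild-type replicate 3. Prph, Vip, Chat, Gfap and Sox10 had 0 reads in wild-type replicate 1. Epithelial markers had a median of 0.01 over 10 genes. The 12 tested skeletal muscle markers had a median of −6.50, which became −0.88 without wild-type replicate 3. Mesothelial markers were near 0, with sums of 4.36 to 9.98 CPM in the 6 libraries, and the cardiac list summed to 58.7 CPM in wild-type replicate 3 and 10.3 to 19.1 CPM elsewhere.

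**Figure D5:**
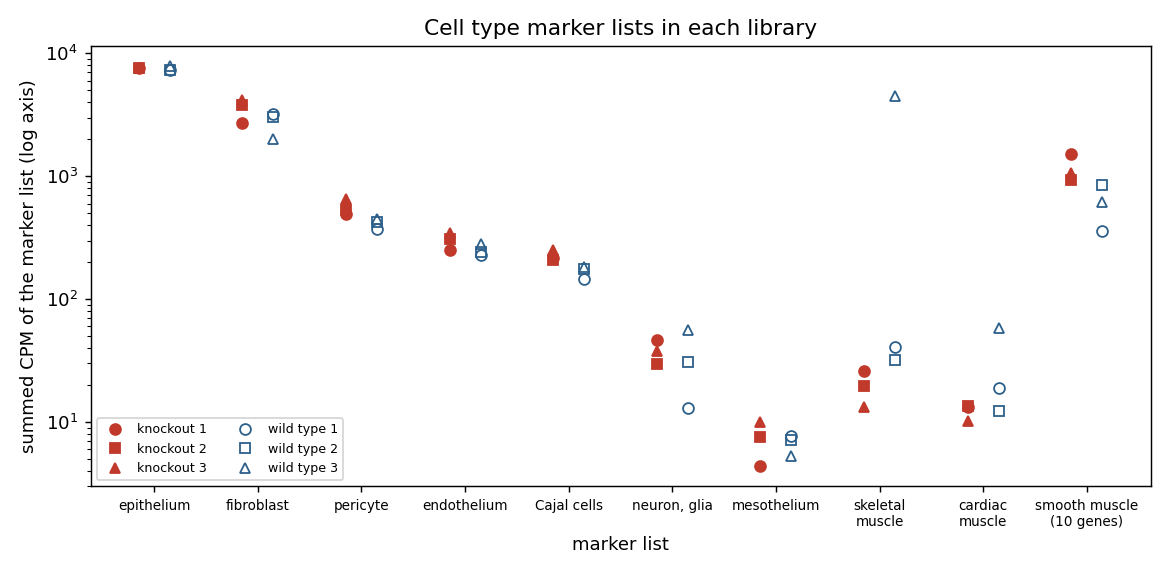
Summed CPM (log axis) of each cell type marker list and of the 10 smooth muscle genes in each library, with filled red symbols for knockout and open blue symbols for wild type. Skeletal muscle markers reach 4480 CPM in wild-type replicate 3 alone, and smooth muscle genes run from 357 CPM in wild-type replicate 1 to 1519 CPM in knockout replicate 1.

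The 8 genes outside the set whose centred log2 CPM lay closest to the mean of the 7 mature muscle genes over the 6 libraries, among 13000 candidates, were Fcna, Tmem252, Adgrd1, Rimkla, Atp2a3, Fkbp5, Pde2a and Elapor1. Their root mean square differences were 0.07 to 0.16 on the log2 scale. Within the set itself, Myh11 (0.22), Tagln (0.23) and Lmod1 (0.25) were closest to that mean and Des (0.76) was farthest. Atp2a3, a calcium pump of the endoplasmic reticulum, had 506, 352 and 491 CPM in knockout and 97.2, 316 and 245 CPM in wild-type libraries. Fkbp5, a co-chaperone of steroid receptors, had 101, 73.0 and 88.1 CPM against 17.5, 55.6 and 41.9 CPM. Neither passed the test (edgeR adjusted p = 0.429 and 0.388). Both were lowest in wild-type replicate 1, as were 9 of the 10 muscle genes. This follows from the way both genes were picked, by likeness to the mature mean over these same libraries.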

How the data were processed

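The values deposited by the authors are raw read counts by gene symbol in 6 samples. Per the submitters' processing notes, mm10, TopHat2, edgeR and limma were used, with no version or role given. The sources used here do not name the counter or how strand and multiply mapped reads were handled. The main test was edgeR 4.0.16's quasi-likelihood test (R 4.3.3), with group as the only term, TMM scaling, the filterByExpr filter and Benjamini-Hochberg adjustment over 16281 genes, two-sided, at 0.05. CPM values use the TMM-scaled library size. Standard errors are the log2 fold change divided by the square root of F. Knockout depth was below wild-type depth in every library, and the fewest reads of a listed member in a library were 146, for Cnn1. Exon lengths and positions come from GENCODE M21 (GRCm38, the assembly of mm10), promoter windows from RefSeq.

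The 10 members, their split into 3 shared and 7 mature genes, the 5 pathway lists and the 9 cell type lists were chosen with earlier results of these data known. Named genes are Trim21, the members, the 3 most abundant tested genes of each list, and the 8 genes outside the set most like the mature mean at a mean log2 CPM (prior count 2) of at least 1, without predicted and small RNA genes. Other genes, such as those of a list with an unadjusted p under 0.05, were named after their values were seen. Some listed genes are not reported here. Alternatives were DESeq2 1.42.0, limma-voom (limma 3.58.1) with and without sample weights, other scalings and filters, a block for replicate number, and each library left out in turn. The main edgeR fit, DESeq2 and limma-voom without sample weights were checked on simulated data, and the other settings were not.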

Additional observations from a re-analysis of the deposited data

How the results depend on the processing

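Across 15 alternative settings, 145 of 150 member results kept their direction and side of the threshold. No gene passed in the main fit, so keeping the side meant only that a member again did not pass. With DESeq2 3 members passed, with log2 fold changes of 1.00 for Acta2, 1.10 for Myl9 and 0.50 for Mylk, and 242 genes were higher and 93 lower in all. Des ran from −0.19 (wild-type replicate 1 left out) to 1.00 (limma-voom). With single libraries left out its highest value was 0.93 (wild-type replicate 3), and it was also below 0, at −0.06, when knockout replicate 1 was left out. The cause was not tested. Over all genes, 1 gene was lower with sample weights in limma-voom. Leaving out 1 library gave 0 to 1 genes higher and 3 to 8 members with an unadjusted p under 0.05, the fewest without knockout replicate 1 and 4 without knockout replicate 3, where the shares over all genes were 3.79% to 7.53%. This count and that of groups that do not overlap (6 to 9 when a library was left out, where 13.0% to 16.2% of all genes lay apart) were added after seeing the data. The members' median log2 fold change was 0.70 to 1.33 over all settings, and the shared minus mature difference of medians was −0.05 to 0.30. With the replicate number as a block the members' median was 1.07, the shared minus mature difference 0.17, and 0 members and 0 genes passed. Same-numbered libraries did not deviate together (correlations across genes of −0.15, −0.17 and −0.07), so the numbers were not taken as pairs. With 3 samples a group, standard errors of 0.56 to 0.80 for Actg2, Cnn1 and Des limit what can be detected for these genes.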
